A study of Mus musculus with 12 samples.

Results

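The neuropeptide genes Gal, Tac2, Npy, Sst, Cck, Penk, Pdyn and Vip were followed by their symbols among the 27998 genes of the single-cell tables and by their Entrez identifiers among the 40814 genes of the neurosphere table, and all 8 were found in both. The question was which cells of the early postnatal dentate gyrus held the mRNA of each peptide, and whether the levels differed when Larp7 was deleted.

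Neuropeptides are made as long precursors, cut by prohormone convertases, stored in dense-core vesicles and released to act on G-protein-coupled receptors. In the mature hippocampus Npy, Sst, Vip and Cck are classic labels of inhibitory interneurons, while Pdyn (prodynorphin) and Penk (proenkephalin), the precursors of opioid peptides, are made by granule neurons and other cells. Gal encodes galanin, and Tac2 encodes the precursor of neurokinin B. On the GRCm38.p6 build the genes are Cck (ENSMUSG00000032532) at chr9:121489824-121495694, Gal (ENSMUSG00000024907) at chr19:3409915-3414544, Npy (ENSMUSG00000029819) at chr6:49822710-49829507, Pdyn (ENSMUSG00000027400) at chr2:129686549-129699938, Penk (ENSMUSG00000045573) at chr4:4133536-4138815, Sst (ENSMUSG00000004366) at chr16:23889573-23891342, Tac2 (ENSMUSG00000025400) at chr10:127724478-127731768 and Vip (ENSMUSG00000019772) at chr10:5639193-5647617.

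Single cells came from dentate gyri microdissected at P7 from wild-type mice and from 2 mutant genotypes, Larp7f/f;nestin-Cre and Larp7f/f;Emx1-Cre. The study used Larp7-floxed mice as its wild-type controls. The mutants also carry Cre, which cuts an exon out of the floxed Larp7 alleles. Larp7 binds and stabilizes the 7SK RNA that holds the elongation factor P-TEFb inactive. The nestin-Cre transgene is driven by a promoter of neural progenitors and so is carried to their descendants, and Emx1-Cre acts in progenitors of the dorsal telencephalon, whose descendants do not include most cortical interneurons. From 3 to 4 gyri of littermates were pooled into 1 library per genotype, so no difference between genotypes could be tested against the spread of replicates. Intervals are 95% intervals for counting error only. For the mutant libraries, the sample titles and the genotype labels name opposite Cre lines. The titles were followed here, since the barcodes of the library titled for Emx1-Cre (6821, against 7177 in the other) are fewer than the cells the study states for nestin-Cre. "Nestin-Cre" and "Emx1-Cre" therefore stand for the libraries so titled. The bulk samples came from neurospheres, floating cultures of neural stem and progenitor cells from P1 dentate gyrus. To differentiate them, the study dissociated the spheres and replated the cells on coated plates. The cultures after 2 days of differentiation, called neurospheres here, gave 2 wild-type and 3 knockout (Larp7f/f;Emx1-Cre) libraries. The labels number these libraries without naming animals, while the study counts its neurosphere samples as mice.

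Cells with more than 500 genes and under 15% mitochondrial unique molecular identifiers (UMIs) numbered 10997 in the wild-type, 6685 in the nestin-Cre and 6531 in the Emx1-Cre library. The wild-type library was shallower, with a median of 1782 UMIs per cell against 3644 and 3873. At most 23 barcodes were shared by any pair of libraries. Each cell was given to the best of 11 marker lists, called gates, which held none of the 8 peptides, and 18526 of 24213 cells were placed. RGL stands for radial glia-like stem cells, nIPC for neuronal intermediate progenitor cells and OPC for oligodendrocyte precursor cells. Levels are the UMIs of a gene over all UMIs of the gate, in counts-per-million units (CPM). Larp7 itself was at 95.6 CPM in wild-type nIPC-gated cells and at 12.9 and 16.5 CPM in the nestin-Cre and Emx1-Cre libraries, while in microglia or macrophages it was at 55.4, 35.0 and 38.0 CPM. The 3′ tags counted here need not lie in the deleted exon.

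Promoters of Gal, Tac2 and Cck are shown because these genes had their highest levels in 3 different gates. Each covers 250 bases before to 50 bases after the RefSeq start (GRCm38.p6, the mm10 build), read on the strand of the gene. Capitals mark the E-box CANNTG, the sequence class bound by basic helix-loop-helix factors such as Neurod1 and Neurog2, and the cyclic AMP response half-site TGACG, searched on both strands. The Gal window lies at chr19:3414495-3414794 on the minus strand, Tac2 at chr10:127724228-127724527 on the plus strand and Cck at chr9:121495645-121495944 on the minus strand.
Gal: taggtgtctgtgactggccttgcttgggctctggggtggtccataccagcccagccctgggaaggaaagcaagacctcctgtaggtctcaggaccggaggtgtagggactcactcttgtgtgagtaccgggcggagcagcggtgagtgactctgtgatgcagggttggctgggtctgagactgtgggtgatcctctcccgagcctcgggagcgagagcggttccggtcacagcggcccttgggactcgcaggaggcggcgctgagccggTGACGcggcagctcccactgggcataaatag
Tac2: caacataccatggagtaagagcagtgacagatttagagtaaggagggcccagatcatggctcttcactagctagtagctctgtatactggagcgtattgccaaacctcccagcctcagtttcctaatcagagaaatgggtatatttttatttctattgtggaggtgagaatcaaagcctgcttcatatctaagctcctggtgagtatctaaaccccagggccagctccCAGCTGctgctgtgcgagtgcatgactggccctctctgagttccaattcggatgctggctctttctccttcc
Cck: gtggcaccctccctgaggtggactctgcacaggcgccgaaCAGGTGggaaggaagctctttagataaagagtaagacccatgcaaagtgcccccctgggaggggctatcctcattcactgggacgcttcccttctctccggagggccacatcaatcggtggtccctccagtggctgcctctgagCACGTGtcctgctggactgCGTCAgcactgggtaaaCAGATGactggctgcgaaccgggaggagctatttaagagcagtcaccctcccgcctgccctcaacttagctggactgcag
The Gal window held no E-box and 1 half-site, which began 19 bases after the start. The Tac2 window held 1 E-box, CAGCTG, which began 22 bases before the start. The Cck window held 3 E-boxes and 1 half-site, the half-site 47 bases before the start. Of all 32851 promoters of this length, 72.3% held an E-box and 20.8% a half-site, and the full element TGACGTCA was in 1.79%. Among the members it stood only in the window of Sst, at 48 bases before the start. RefSeq promoters were matched for 7 of the 8 genes (all but Penk). A match is a description of the letters and not of binding.

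In all, 6 of the genes could be placed, in 5 gates. Gal had its highest mean level in neuroblasts, Tac2 in nIPCs, Npy in interneuron-gated cells, Cck and Penk in Cajal-Retzius cells, and Pdyn in RGLs or astrocytes. Sst and Vip were too rare in all gates to be placed.

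**Figure D1:**
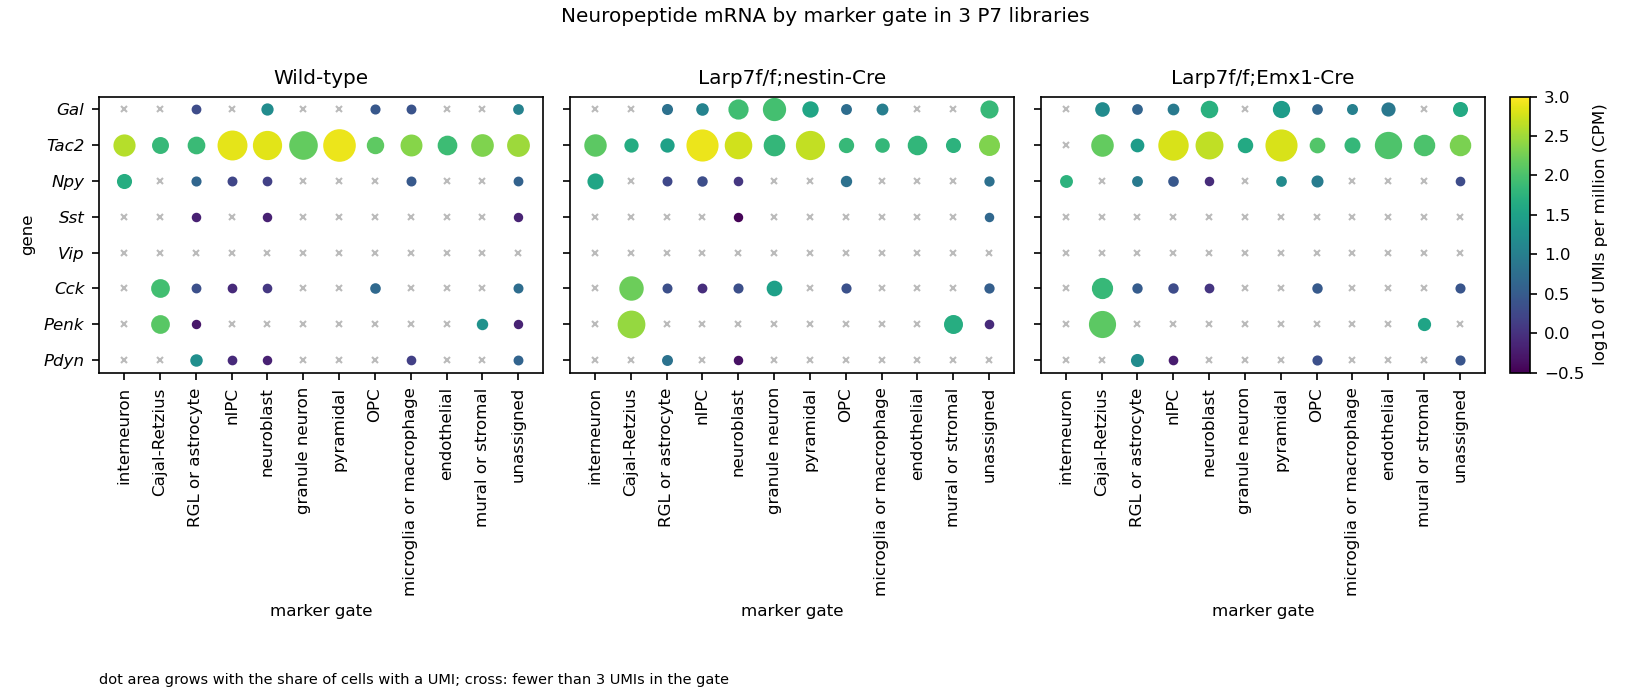
Neuropeptide mRNA in each marker gate (x axis) for the 8 genes (y axis) in the 3 P7 libraries. Colour is log10 of CPM, dot area grows with the share of cells with a UMI, and crosses mark fewer than 3 UMIs. Tac2 was seen in many gates and was highest in nIPC-, neuroblast- and pyramidal-gated cells, while Cck and Penk stood out in the Cajal-Retzius gate.

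Gal had the largest ratio to wild-type of the 6 peptides for which ratios were taken. Neuroblast-gated cells (markers such as Dcx, Sox11 and Neurod1) held 50.5% of its UMIs in the wild-type, 66.4% in the nestin-Cre and 63.9% in the Emx1-Cre library. In these cells Gal was at 15.5 CPM in wild-type (interval 12.5 to 18.9, 92 UMIs in 2184 cells), 85.4 CPM in nestin-Cre (79.4 to 91.8, 748 UMIs in 2374 cells) and 53.0 CPM in Emx1-Cre (48.1 to 58.3, 430 UMIs in 2070 cells). The wild-type level was lowest, and none of the 3 intervals overlapped.

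The ratio to wild-type was 5.53-fold in nestin-Cre (interval 4.45 to 6.94), a log2 ratio of 2.47, and 3.43-fold in Emx1-Cre (2.73 to 4.35), a log2 ratio of 1.78. The nestin-Cre level was 1.61 times the Emx1-Cre level (1.43 to 1.82). Among genes with at least 100 UMIs in the pair of libraries, 9.96% in nestin-Cre and 6.45% in Emx1-Cre neuroblasts were at least 1.5-fold higher than in wild-type, and 9.2% and 4.17% were as much lower. Only 4 of 9601 genes in nestin-Cre and 11 of 9518 genes in Emx1-Cre neuroblasts, Gal included, had a ratio as high as that of Gal. The median log2 ratio over these genes was -0.01 in nestin-Cre and 0.04 in Emx1-Cre.

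More cells held a Gal UMI in the mutant libraries. The share of neuroblast-gated cells with at least 1 Gal UMI was 3.39% in wild-type, 18.2% in nestin-Cre and 12.3% in Emx1-Cre. After every cell was thinned to 1500 UMIs, which left 1568 wild-type, 2231 nestin-Cre and 1952 Emx1-Cre neuroblasts, the shares were 2.36%, 10.5% and 6.81%. The order of the libraries was the same with and without thinning. In microglia or macrophages, which are not known to make galanin, the share was 0.557%, 2.83% and 1.79% at median depths of 1638.5, 3211 and 3241 UMIs, against 2790, 3575.5 and 3764 UMIs in neuroblasts. The background also differed by genotype: Gal in microglia or macrophages was 3.97-fold (1.41 to 13.8) and 4.16-fold (1.33 to 15.3) the wild-type level, from 5, 17 and 11 UMIs. With the microglia or macrophage level of each library subtracted from the neuroblast level, an alternative chosen after seeing the data, the Gal log2 ratios were 2.54 and 1.72.

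Within the neuroblast gate Gal was highest in cells with Prox1 and without Eomes. Eomes marks intermediate progenitors and Prox1 granule cell identity. In cells with Prox1 and no Eomes, Gal was at 28.8, 121 and 79.4 CPM in wild-type, nestin-Cre and Emx1-Cre. In cells with Eomes it was at 6.65, 44.6 and 24.3 CPM, and in cells with neither gene at 4.85, 52.2 and 20.4 CPM. In every one of these groups the wild-type interval lay below both mutant intervals. The ratio to wild-type was 4.20 (nestin-Cre) and 2.75 (Emx1-Cre) in Prox1 cells without Eomes, and 6.71 and 3.65 in Eomes cells. The wild-type intervals with Eomes (3.72 to 11.0) and with neither gene (1.78 to 10.6) overlapped that of wild-type microglia or macrophages (0.796 to 5.72). Those wild-type levels, over which the ratios in Eomes cells were taken, cannot be told from background. In Emx1-Cre the interval with neither gene (11.7 to 33.1) also overlapped that of microglia or macrophages (5.09 to 18.2).

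Many Prox1-positive cells reached no gate, and Gal was present in them too. Unassigned cells with Prox1 held Gal at 13.8, 96.6 and 59.5 CPM, ratios of 6.99 and 4.31 to wild-type. In nIPCs, the stage before, Gal was at 0.28 CPM in wild-type, from a single UMI, and at 11.7 and 8.44 CPM in nestin-Cre and Emx1-Cre. Those mutant levels overlapped the levels in microglia or macrophages of the same libraries, 9.74 and 10.2 CPM (2.45 CPM in wild-type). The nIPC values of Gal therefore cannot be told from background. Granule neuron-gated cells numbered only 7, 23 and 12, and Gal had 0, 12 and 1 UMIs in them.

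**Figure D2:**
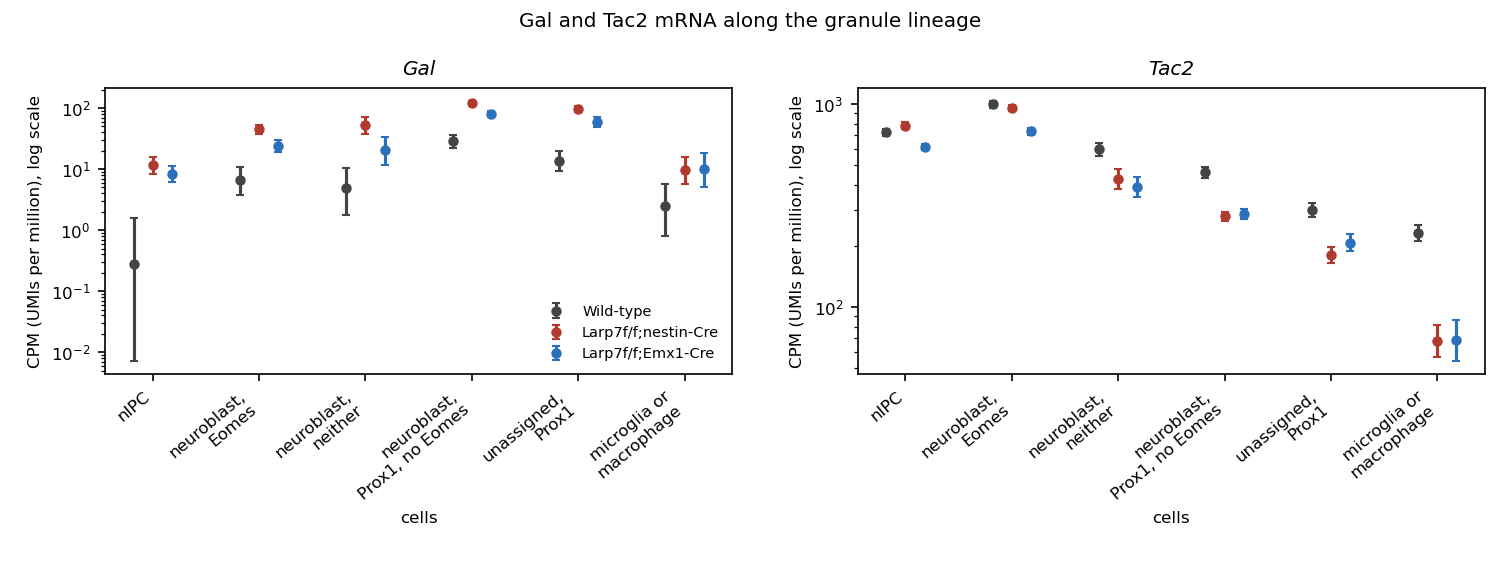
Levels of Gal (left) and Tac2 (right) as CPM on a log scale along the granule lineage, from nIPCs through neuroblasts with Eomes, with neither gene, or with Prox1 and no Eomes, to unassigned cells with Prox1, with microglia or macrophages as background. Points are single libraries and bars 95% Poisson intervals. Gal peaked in neuroblasts with Prox1 at 28.8, 121 and 79.4 CPM, while Tac2 peaked in neuroblasts with Eomes at 994, 956 and 733 CPM.

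Tac2 was higher in the earlier stages of the same lineage. Its mean level over libraries was highest in nIPCs, at 726 CPM in wild-type (699 to 755, 2598 UMIs), 780 CPM in nestin-Cre (750 to 811, 2541 UMIs) and 611 CPM in Emx1-Cre (590 to 634, 3043 UMIs). The share of nIPCs with a Tac2 UMI was 47.6%, 55.9% and 49.3%, and 37.7%, 40.5% and 34.8% after thinning. In neuroblasts Tac2 was at 691, 555 and 465 CPM. Within that gate Tac2 was at 994, 956 and 733 CPM in cells with Eomes and at 460, 279 and 287 CPM in cells with Prox1 and no Eomes.

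The differences between genotypes in Tac2 depended on the stage and on the background. In nIPCs the log2 ratio to wild-type was 0.10 (0.02 to 0.18) in nestin-Cre and -0.25 (-0.32 to -0.17) in Emx1-Cre, on opposite sides of 0. In simulated data the nIPC gate was poorly recovered at the wild-type depth, an error that the counting intervals leave out. Tac2 was in neither set of nIPC genes 1.5-fold from wild-type, which held 7.27% (higher) and 4.26% (lower) of genes in nestin-Cre and 5.31% and 1.73% in Emx1-Cre. In neuroblasts with Prox1 and no Eomes, Tac2 was at 0.606 (0.559 to 0.658) of the wild-type level in nestin-Cre and 0.624 (0.575 to 0.677) in Emx1-Cre. In neuroblasts with Eomes the ratios were 0.961 (0.911 to 1.01) and 0.737 (0.695 to 0.782). These ratios include a background, given next, that in microglia or macrophages was higher in wild-type.

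Tac2 also gave the strongest background of the 8 genes. Microglia or macrophages held it at 231 CPM in wild-type and at 68.2 and 68.6 CPM in nestin-Cre and Emx1-Cre, and 22.5%, 6.87% and 9.32% of these cells had a Tac2 UMI. When the microglia or macrophage level of each library was subtracted, an alternative chosen after seeing the data, the nIPC log2 ratios became 0.52 and 0.13. The sign of the Emx1-Cre ratio thus changed with this subtraction. Tac2 outside the lineage differed by gate. It was at 74.2, 32.0 and 26.1 CPM in RGLs or astrocytes and at 78.2, 64.5 and 106 CPM in endothelial cells. In mural or stromal cells it was at 209, 55.6 and 103 CPM. Only the microglia or macrophage level was subtracted, so the sign was not settled. The same subtraction, also chosen after seeing the data, left Tac2 at 228, 211 and 218 CPM in neuroblasts with Prox1 and no Eomes. The ratios to wild-type were 0.922 and 0.956, so the genotypes differed less in these cells after the subtraction. In unassigned cells with Prox1, however, the Tac2 ratios went from 0.602 and 0.691 to 1.63 and 2.02, to the other side of 1. In neuroblasts with Eomes the subtraction left 763, 888 and 665 CPM, ratios of 1.16 and 0.871. Tac2 stayed higher there than in neuroblasts with Prox1 and no Eomes in all 3 libraries. The Gal ratios in neuroblasts with Prox1 and no Eomes became 4.22 and 2.62. Pyramidal-gated cells, 38, 60 and 68 in number, had Tac2 at 785, 484 and 620 CPM, and their leading genes included both Tac2 and the neuroblast marker Neurod1. In wild-type and Emx1-Cre the pyramidal and nIPC intervals of Tac2 overlapped, so these gates could not be ordered there.

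Cells with Gal and cells with Tac2 overlapped in part. Among neuroblasts with a Gal UMI, 25.2% (interval 21.2 to 29.6) in nestin-Cre and 31.0% (25.4 to 37.0) in Emx1-Cre also had Tac2, against 39.2% and 40.5% of all neuroblasts. Among the 74 wild-type neuroblasts with Gal the share was 48.6% (36.9 to 60.6), against 45.0% of all. The mutant intervals lay below the share of all neuroblasts and the wild-type interval included it. Cells with and without Gal had median depths of 3532 and 3583.5 UMIs in nestin-Cre, 3635 and 3779 in Emx1-Cre, and 3121.5 and 2775.5 in wild-type, so the wild-type share was taken from the deeper cells and was not compared with the mutant shares.

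The cells that passed the interneuron gate were few and were not mature peptide interneurons by their markers. They numbered 13 in wild-type, 42 in nestin-Cre and 47 in Emx1-Cre. Their leading genes included Dlx1, Dlx2, Gpd1, Sp9, Gad2, Dlx5, Ccnd2, Dlx6os1 and Hrk, of which Dlx1 and Dlx2 are transcription factors of inhibitory precursors and Ccnd2 is a cyclin of dividing cells. Dlx1 was at 604, 789 and 784 CPM, and the division gene Top2a at 254, 834 and 759 CPM. Lhx6, which marks interneurons of the medial ganglionic eminence, had 0, 1 and 0 UMIs. The name interneuron is therefore used only for the gate.

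Npy, which encodes neuropeptide Y, was the only classic interneuron peptide seen in this gate. It had 3 UMIs in 1 of 13 wild-type cells, 8 UMIs in 4 of 42 nestin-Cre cells and 13 UMIs in 2 of 47 Emx1-Cre cells, 9 of them in a single cell. The levels were 47.7 CPM (9.83 to 139), 36.3 CPM (15.7 to 71.5) and 55.4 CPM (29.5 to 94.7), and all 3 intervals overlapped. The log2 ratio to wild-type was -0.39 (-2.45 to 2.15) in nestin-Cre and 0.22 (-1.65 to 2.67) in Emx1-Cre, so a difference was not detectable at this depth. In this gate 11.4% and 9.63% of genes with at least 100 UMIs were at least 1.5-fold higher than in wild-type and 4.14% and 4.36% lower, and Npy had too few UMIs to be among them. In microglia or macrophages Npy was at 2.94, 0 and 0.927 CPM.

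Most Npy UMIs lay outside that gate. Of 82, 67 and 121 Npy UMIs in the libraries, RGLs or astrocytes held 40.2%, 16.4% and 52.1%. There Npy was at 4.36, 1.84 and 8.52 CPM, and in Emx1-Cre 12 of its 63 UMIs came from 1 cell that had no UMI of Gad1, Gad2 or Slc32a1. OPCs held Npy at 1.91, 6.26 and 9.02 CPM, from 2, 8 and 12 UMIs.

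Sst and Vip, which mark 2 of the main interneuron classes, were nearly absent. Sst had 14, 23 and 6 UMIs in all of the wild-type, nestin-Cre and Emx1-Cre libraries, and none in the interneuron gate, which allows up to 47.7, 13.6 and 12.8 CPM there. Of the 23 nestin-Cre UMIs, 15 came from a single unassigned cell of 1006 UMIs, which also held 8 Npy UMIs and none of Gad1, Gad2, Slc32a1 or Lhx6. Vip had 3, 4 and 2 UMIs in all, at most 1 in a cell and none in the interneuron gate. Cells with at least 2 UMIs of Gad1 and Gad2, enzymes of GABA synthesis, numbered 3, 12 and 21, and none of them had Sst. Cck, Penk and Pdyn also had no UMI in interneuron-gated cells. Tac2 had 26, 29 and 1 UMIs there (413, 131 and 4.26 CPM), in 3, 10 and 1 cells. A single cell held 24 of the 26 wild-type UMIs, and another 17 of the 29 nestin-Cre UMIs.

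Cck and Penk had their highest mean level in Cajal-Retzius cells, the Reln-producing neurons of the marginal zone that line the dentate fissure after birth. The gate held 27 wild-type, 95 nestin-Cre and 29 Emx1-Cre cells, led by Reln, Snhg11, Ndnf and Meg3. Its wild-type cells were shallower, with a median of 1643 UMIs against 5725 and 6931.

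Penk was at 123 CPM in wild-type (49.6 to 254, 7 UMIs), 276 CPM in nestin-Cre (234 to 325, 147 UMIs) and 130 CPM in Emx1-Cre (85.1 to 191, 26 UMIs). Nestin-Cre was highest, and its interval overlapped that of wild-type but not that of Emx1-Cre. The log2 ratio to wild-type was 1.16 (0.08 to 2.50) in nestin-Cre and 0.08 (-1.16 to 1.53) in Emx1-Cre, and nestin-Cre was 2.12 times Emx1-Cre (1.39 to 3.36). Of the genes with at least 100 UMIs in the pair of libraries in Cajal-Retzius cells, 26% were at least 1.5-fold higher in nestin-Cre than in wild-type and 19.8% in Emx1-Cre. As much lower were 8.45% and 7.61%. Penk in nestin-Cre was 1 of 268 such higher genes among 1030. It reached the minimum through its 147 nestin-Cre UMIs, against 7 in wild-type. The minimum favours genes high in the mutant, so these shares are not an even background for Penk. The Penk ratio in nestin-Cre was also set by the gate: the log2 ratio was 0.17 when 4 markers were asked of a cell and 2.10 when 2 were, the latter chosen after seeing the data. Penk was detected in 4 of 27, 38 of 95 and 11 of 29 cells. The gate held 31.8%, 91.3% and 68.4% of all Penk UMIs of the libraries, and the mural or stromal gate held 18.2%, 3.73% and 15.8%, from 4, 6 and 6 UMIs.

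Cck was at 88.1 CPM in wild-type (28.6 to 206, 5 UMIs), 164 CPM in nestin-Cre (131 to 202, 87 UMIs) and 70.1 CPM in Emx1-Cre (38.3 to 118, 14 UMIs), and 21 of the nestin-Cre UMIs came from 1 cell. The ratio to wild-type was 1.86 (0.766 to 5.86) in nestin-Cre and 0.796 (0.271 to 2.82) in Emx1-Cre, and both intervals included 1. After thinning, 12.5%, 8.33% and 13.8% of the cells had a Cck UMI, an order that went against the CPM, so no order of the libraries was read from these shares. The nestin-Cre level was 2.33 times the Emx1-Cre level (1.32 to 4.44), but 1.24 times without the 6% of cells with most UMIs and 1.32 times after thinning. The Cajal-Retzius gate held 6.94%, 60% and 19.4% of all Cck UMIs of the libraries, so most lay outside it in wild-type and Emx1-Cre. RGLs or astrocytes held 23.6%, 8.97% and 33.3%, and unassigned cells 44.4%, 8.97% and 11.1%. The level in RGLs or astrocytes was low, at 2.25, 2.17 and 3.25 CPM, while 2 of 23 granule neuron-gated cells of nestin-Cre held 4 Cck UMIs. Among Cajal-Retzius cells with a Penk UMI, 2 of 4, 16 of 38 and 5 of 11 also had Cck. In all cells of the gate the shares with Cck were 14.8%, 29.5% and 20.7%. The intervals among cells with Penk (6.76% to 93.2%, 26.3% to 59.2% and 16.7% to 76.6%) each included the share of all cells. Cells with Penk were also deeper, with medians of 2702.5, 6237.5 and 8168 UMIs against 1598, 5481 and 6584.5 without it.

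The kappa-opioid precursor gene Pdyn was found mainly in RGLs or astrocytes. The RGL or astrocyte gate held 77.7%, 81.6% and 85.8% of its UMIs. Pdyn was at 17.1 CPM in wild-type (14.2 to 20.3, 129 UMIs in 2661 cells), 6.67 CPM in nestin-Cre (4.77 to 9.09, 40 UMIs in 1440 cells) and 15.6 CPM in Emx1-Cre (12.8 to 18.7, 115 UMIs in 1697 cells). Nestin-Cre lay below the other libraries with no overlap of the intervals, and wild-type and Emx1-Cre overlapped.

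The log2 ratio of Pdyn to wild-type was -1.35 (-1.90 to -0.83) in nestin-Cre and -0.13 (-0.51 to 0.24) in Emx1-Cre, and nestin-Cre was at 0.429 of Emx1-Cre (0.292 to 0.620). In this gate 2.43% of genes in nestin-Cre and 1.51% in Emx1-Cre were at least 1.5-fold lower than in wild-type, and 8.14% and 3.98% as much higher. The share of cells with a Pdyn UMI was 3.68%, 1.74% and 4.54%, and 1.60%, 0.904% and 1.71% after thinning. In microglia or macrophages Pdyn was at 1.47, 0 and 1.85 CPM. In neuroblasts, the stage before the granule neurons that are a known source of dynorphin, it was at 0.672, 0.457 and 0.247 CPM. Granule neuron-gated cells, 7, 23 and 12 in number, held 0, 2 and 0 Pdyn UMIs. The upper limits there were 106, 53.3 and 51.1 CPM, so these cells were too few to show whether granule neurons held Pdyn.

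Pdyn was concentrated in the cells with Aqp4, the water channel of astrocytes, a split chosen after the values were seen. With Aqp4 detected, Pdyn was at 27.7, 11.0 and 23.8 CPM, and without it at 5.51, 0.791 and 1.80 CPM. Nestin-Cre was the lowest of the 3 libraries in both, and without Aqp4 its interval (0.0958 to 2.86) overlapped that of Emx1-Cre (0.585 to 4.20).

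**Figure D3:**
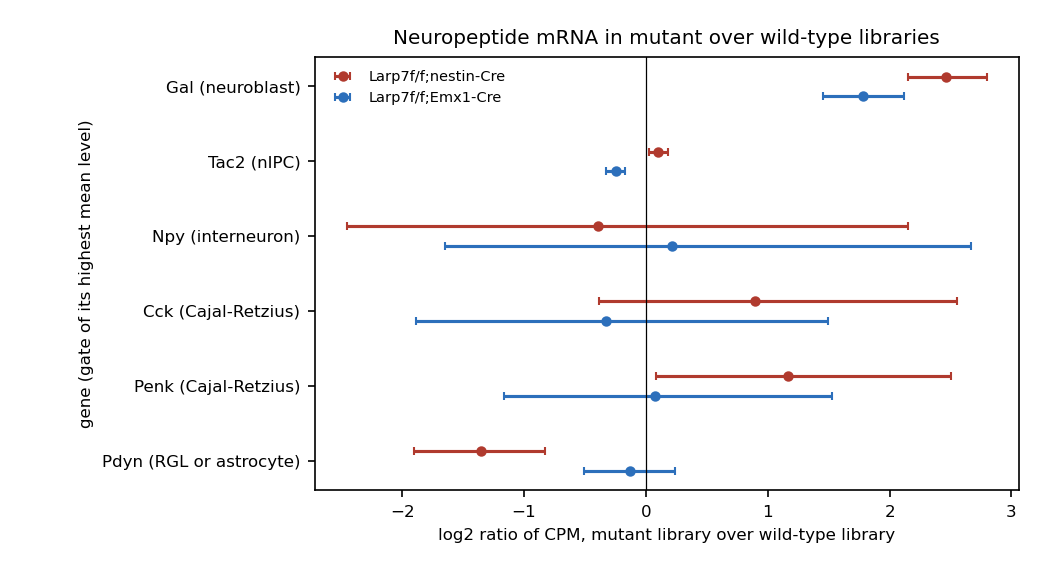
Log2 ratio of CPM (x axis) of the nestin-Cre and Emx1-Cre libraries to the wild-type library for 6 peptide genes, each in the gate of its highest mean level (y axis). Points are single ratios and bars 95% intervals for counting error. Both Gal ratios (2.47 and 1.78) lie to the right of 0, the nestin-Cre Pdyn ratio (-1.35) lies to the left, and the Npy and Cck intervals span 0.

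Genes that pack and process peptides were expressed all along the granule lineage. Of 11 granins and processing genes, 11 had a UMI and 8 reached 10 CPM in the combined nIPC, neuroblast and granule neuron gates. The highest were Cpe, a carboxypeptidase that trims peptide ends, at 357, 343 and 350 CPM, Scg3, a granin, at 222, 239 and 248 CPM, and Pcsk1n, an inhibitor of prohormone convertase, at 158, 214 and 184 CPM. Among those with at least 100 UMIs in the pair of libraries, 5 of 10 were at least 1.5-fold higher in nestin-Cre and 2 of 9 in Emx1-Cre. None was as much lower. This minimum favours genes high in the mutants. Vgf and Pcsk2, with 12 and 39 wild-type UMIs, reached it in nestin-Cre mainly through 97 and 93 mutant UMIs. In Emx1-Cre Vgf, with 72 mutant UMIs, did not reach it, so these counts depend in part on the minimum. The background was 10.6% of genes higher and 8.21% lower in nestin-Cre and 6.2% and 2.44% in Emx1-Cre, and the median log2 ratio of the list was 0.56 and 0.30 against 0.01 and 0.06 over all genes. By gate, 3 of 8 were at least 1.5-fold higher in nIPCs of each mutant, and 1 of 8 in neuroblasts of each. The shares over all genes were 7.27% (nestin-Cre) and 5.31% (Emx1-Cre) in nIPCs and 9.96% and 6.45% in neuroblasts.

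Scg2, the precursor of secretoneurin, had a log2 ratio of 1.07 in nestin-Cre and 0.85 in Emx1-Cre, and Pcsk2, a prohormone convertase, 0.91 and 0.79. Vgf, whose products include several peptides, was at 1.25, 7.98 and 5.47 CPM, from 12, 97 and 72 UMIs. These 3 genes were named after their values were seen. In interneuron-gated cells, 9 of the 11 genes had a UMI, and Cpe (270, 236 and 268 CPM), Scg3 (191, 258 and 230 CPM) and Pcsk1n (207, 77.1 and 107 CPM) were again the highest.

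Other neuropeptide genes were sparse. Of 15, 13 had a UMI in the granule lineage gates, and 1 reached 10 CPM: Nmb, which encodes neuromedin B, at 24.1, 27.6 and 25.7 CPM. Pomc, the pro-opiomelanocortin gene, was at 6.59, 5.60 and 6.84 CPM and Grp, for gastrin-releasing peptide, at 0.627, 2.22 and 2.20 CPM. In interneuron-gated cells Pomc, Nmb and Cort, the 3 highest, had at most 2 UMIs in a library. In Cajal-Retzius cells, the gate where Penk and Cck were highest, Pnoc, which encodes nociceptin, was at 300, 528 and 486 CPM.

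Receptors for the 8 peptides were present mainly as Sstr2, a somatostatin receptor. In the granule lineage gates Sstr2 was at 120, 143 and 141 CPM, with log2 ratios of 0.26 and 0.24, and it was the 1 gene of 18 measured receptors over 10 CPM. Galr1, a galanin receptor, was at 2.61, 1.81 and 1.75 CPM, and Sstr3 at 1.36, 1.40 and 1.60 CPM. In interneuron-gated cells Sstr2 had 1, 9 and 5 UMIs, and Galr1 and Vipr2, a receptor for Vip, had at most 1 UMI in a library.

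The genes most like each peptide were sought by the correlation of log2(CPM + 10) over 30 sums of a gate in a library, among 13320 genes. The sums of a library share its depth and background, and no p is given. For Gal these were Cpne9 (r = 0.889), Cntnap5a (0.878) and Rbfox1 (0.864), and for Tac2 Myo1a (0.852), Igsf8 (0.838) and Scrt2 (0.831). For Cck they included A830039N20Rik (0.961) and Kcnip2 (0.952), and for Penk Mgat4c (0.989), Dync1i1 (0.932) and Kcnmb2 (0.929). For Npy they were D030055H07Rik (0.913), Grpr (0.888) and Gpd1 (0.842), and for Pdyn A330048O09Rik (0.908), 1700063D05Rik (0.884) and Tekt5 (0.880). Sst and Vip had too few UMIs to be compared.

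Neurospheres held almost none of the 8 mRNAs. With library totals of 59821311 to 62474602 counts, no peptide gene exceeded 15 counts in a library, and none of the 8 passed the filter on low counts. In bulk samples, fewer cells of a type and less RNA per cell cannot be told apart. Larp7 had 2575 and 2108 counts in wild-type and 248, 392 and 276 in knockout cultures, a log2 fold change of -2.97 ± 0.21 (SE; edgeR quasi-likelihood test, Benjamini-Hochberg adjusted p = 0.0198).

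Gal had 0 and 0 counts in the wild-type libraries and 0, 6 and 5 in the knockout libraries. Pdyn had 0 and 0 counts in wild-type and 8, 15 and 4 in knockout. Fitted without the filter, its edgeR p was 0.0227 and its Benjamini-Hochberg adjusted p 0.236. Penk had 0 and 8 counts against 4, 9 and 10, and Npy 6 and 8 against 0, 0 and 15. Tac2 had counts only in 1 knockout library (4) and Sst only in 1 wild-type library (3), and Cck and Vip were at 0 in all 5. Of the 8 members, edgeR without the filter and DESeq2 each called 0, and each gave 1 an unadjusted p under 0.05. Over all genes, 3988 and 4068 had such a p in these 2 fits.

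edgeR called 3 genes higher and 3 lower at an adjusted p under 0.05 among 17753 tested, 0.0169% in each direction, and 3846 genes had an unadjusted p under 0.05. DESeq2 called 1586 genes. Without wild-type replicate 1 edgeR called 1050 genes higher and 855 lower. Without knockout replicate 3 edgeR called 0 and 0. The number of calls over all genes thus moved both with the test and with the library left out.

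No gene of the other lists passed edgeR's test. Over all 17753 genes tested, 3846 had an unadjusted edgeR p under 0.05 (1849 higher, 1997 lower), and DESeq2 called 1586. Of 11 granins and processing genes, 10 were tested, 7 had an unadjusted p under 0.05 (4 higher, 3 lower) and DESeq2 called 1, Cpe. The median log2 fold change of the list was -0.04, against 0.01 over all genes tested. Of 19 receptors, 10 were tested, 5 had an unadjusted p under 0.05 (4 higher, 1 lower) and DESeq2 called 1, Sstr1, with a list median of 0.72. Of 15 other neuropeptides, 8 were tested, 1 had an unadjusted p under 0.05 and DESeq2 called 0, with a list median of 0.19.

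The next 3 genes were also followed in the P7 cells and were chosen after their values were seen. Vgf had 24 and 32 counts in wild-type and 49, 98 and 79 in knockout libraries, a log2 fold change of 1.39 ± 0.42 (SE; edgeR adjusted p = 0.148). Scg2 had 99 and 87 against 58, 52 and 60 counts, a log2 fold change of -0.74 ± 0.27 (edgeR adjusted p = 0.195), and so lay on the other side of 0 from its ratio in the P7 granule lineage. Cpe had 35967 and 44355 against 32046, 28837 and 32632 counts, a log2 fold change of -0.39 ± 0.11 (edgeR adjusted p = 0.138).

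**Figure D4:**
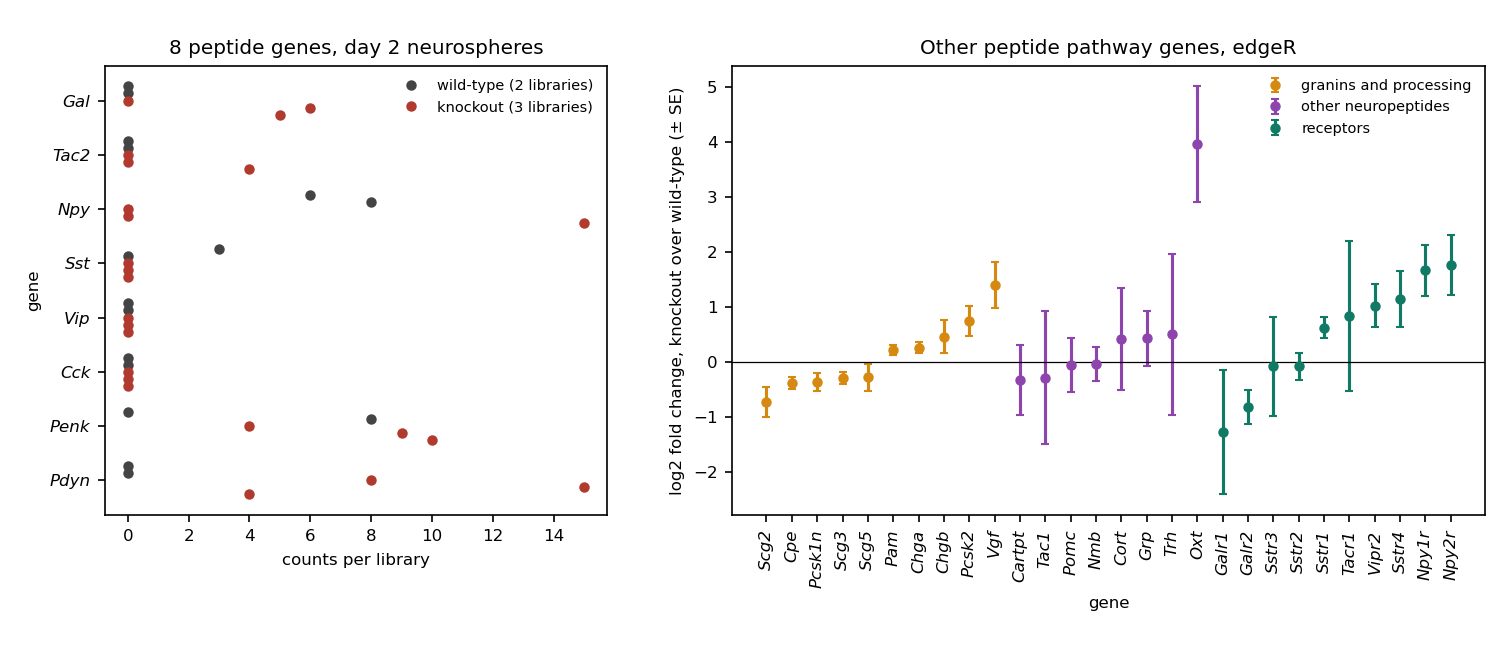
Neurospheres at day 2 of differentiation. Left, counts per library (x axis) of the 8 peptide genes in 2 wild-type and 3 knockout libraries. Right, edgeR log2 fold change (y axis, knockout over wild-type, bars ± SE) of the 28 genes of the other lists that were tested. The 8 genes stayed at or under 15 counts, and none of the 28 passed the adjusted test.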

How the data were processed

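Single-cell RNA-seq of P7 dentate gyrus and bulk RNA-seq of differentiating neurospheres were used, and the ATAC-seq and CUT&Tag data were not used here. The authors made UMI counts per gene and barcode with Cell Ranger, and these filtered counts were deposited without normalization. The deposited neurosphere table holds whole-number counts per Entrez gene. The sources differ on the tool that made them (an aligner in the study's methods, featureCounts in the submitters' processing notes), and the notes name the mm10 build. They also differ on the Cell Ranger version and the kit chemistry. Of the 10 columns of the table, 5 were not used. Symbols were matched for 39373 of 40814 genes.

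Cells had more than 500 genes and under 15% mitochondrial UMIs. Each was gated by 106 markers in 11 lists, at least 3 of them detected, on log-normalized values. Cells near the boundary between gates (17.9% of gated cells) and doublets were kept, and removal of the 6% of cells with most UMIs was an alternative. Cells were summed per gate and library, intervals are exact Poisson or binomial at 95%, and 3 counts set the limit of a count of 0. All 8 members are named. From the other lists the 3 highest genes in the interneuron and granule lineage gates, and for each member the 3 most correlated genes, are named (1 gene like Cck is not reported here), and other names were chosen after the values were seen, as were the splits by Eomes, Prox1 and Aqp4. Members and lists were chosen with earlier results of these data known.

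Neurospheres were tested with edgeR 4.0.16 (TMM, filterByExpr, quasi-likelihood test, Benjamini-Hochberg adjustment, threshold 0.05) in R 4.3.3, with DESeq2 1.42.0 as an alternative. The gating and the tests were tested on simulated data, where the granule neuron and pyramidal gates were poorly recovered, as was the nIPC gate at the wild-type depth. Python 3.11.15, numpy 2.4.6, scipy 1.17.1, pandas 2.3.3 and matplotlib 3.10.9 were used. Totals were 28918491, 26689878 and 28537738 UMIs in the wild-type, nestin-Cre and Emx1-Cre libraries. Intervals cover counting error only.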

Additional observations from a re-analysis of the deposited data

Results flagged for a closer look

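In 3 genes the nestin-Cre and the Emx1-Cre libraries lay on opposite sides of wild-type. The differences were not tested, since each genotype is 1 library. Cck in Cajal-Retzius cells had log2 ratios of 0.89 in nestin-Cre and -0.33 in Emx1-Cre, and the mutants lay on opposite sides under 7 of 8 alternatives, the exception being thinning (-0.31 and -0.71). Npy in interneuron-gated cells had log2 ratios of -0.39 and 0.22, from 8 and 13 UMIs against 3 in wild-type, and lay on opposite sides under 3 of 8 alternatives. Tac2 in nIPCs had log2 ratios of 0.10 and -0.25, on opposite sides under 6 of 8 alternatives. This gate was poorly recovered at the wild-type depth in simulated data.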

How the results depend on the processing

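Of 96 alternative values of the 12 log2 ratios to wild-type, 90 stayed within the counting interval of the value given and 6 lay outside it. The sign changed in 12, of which 10 were of ratios whose interval included 0 (Npy 5, Penk 3, Cck 1 and Pdyn 1) and 2 were of Tac2. For Tac2 in nIPCs, nestin-Cre was at -0.043 and Emx1-Cre at -0.43 without the 6% of cells with most UMIs. The nestin-Cre ratio was 0.35 after thinning, and with the microglia or macrophage level subtracted, an alternative chosen after seeing the data, the ratios were 0.52 and 0.13. Npy in Emx1-Cre interneuron-gated cells was at -1.86 after thinning. The Gal ratios ranged from 2.40 to 2.56 in nestin-Cre and from 1.72 to 1.97 in Emx1-Cre, and the nestin-Cre Pdyn ratio from -1.35 to -0.87. The cause of these movements was not tested. In neurospheres, the members were too low to be tested under most alternatives, so 0 calls there say nothing of stability. Without the filter on low counts edgeR also called 0 of them. Over all genes, 3 were called higher and 3 lower, DESeq2 called 726 and 860, and without the filter on low counts 1 was higher and 2 were lower. Leaving out 1 library gave 0 to 1050 higher and 0 to 855 lower, the largest without wild-type replicate 1. Of the list genes with an unadjusted p under 0.05, Cpe and Sstr1 were called by DESeq2, and Oxt, Scg3, Cpe and Vipr2 by edgeR without wild-type replicate 1. With the replicate number as a block (replicate block), 0 genes were called higher and 0 lower. The correlations of same-numbered libraries, -0.0053 and 0.093, do not show that the numbers pair the samples. Depth limits Sst, Vip and all peptides in the gates of fewest cells.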

Other observations

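Cells that reached no gate, 3694 in wild-type, 1124 in nestin-Cre and 869 in Emx1-Cre, held 35.2%, 22.6% and 18.6% of the Gal UMIs. Peptide-processing genes were also high in Cajal-Retzius cells, where Pcsk1n was at 493, 1243 and 1212 CPM and Chgb, a granin, at 282, 651 and 711 CPM in wild-type, nestin-Cre and Emx1-Cre. In the same cells Scg2 was at 35.2, 77.1 and 115 CPM, from 2, 41 and 23 UMIs.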
